A study of Arabidopsis thaliana with 72 samples.

Results

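A set of 31 Arabidopsis genes had high array signal in isolated cotyledon veins and signal close to the floor in isolated mesophyll, out of 16722 probe sets that the platform annotation assigns to 1 gene. They were chosen on measured values. On the log2(intensity + 1) scale, a member had a mean over 12 arrays of at least 8 in the vasculature of both day lengths, a mean of at most 3 in the mesophyll of both, and a range over its 6 time means under 2 in each vasculature group, with sugar transporters of the SWEET family, glucosinolate transporters, CLE peptide genes and AT5G18600 left out. The vasculature minimum was met by 401 genes, 36 of these also met the mesophyll maximum, and the range limit removed 5 (AT5G18600, AT5G22860, AT4G15660, AT4G15680 and AT4G15700). Vasculature and mesophyll levels are therefore given as a description with no test; whole leaf arrays did not enter the choice. Differences between day lengths and between days were no criterion and were tested. In vasculature they come from values that had to meet the same minimum and range limit in both day lengths. That leaves out genes with a low mean or a wide time range in either day length, and sets no upper limit on a difference.

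All plants were wild type of the Columbia accession (Col-0), and no transgene or mutant was involved. Seedlings grew on Murashige and Skoog (MS) medium supplemented with sucrose (0.5%), in long days (16 h light, 8 h dark) or short days (8 h light, 16 h dark), and RNA was taken on day 9 and day 10 at 6 Zeitgeber times (ZT), 0, 4, 8, 12, 16 and 20 h after the lights came on. Whole leaf RNA came from intact cotyledons, while mesophyll and vasculature were freed from cotyledons by digestion with enzymes and by sonication, in at most 30 min. Each of the 6 combinations of tissue and day length has 12 arrays of the Affymetrix Arabidopsis Gene 1.0 ST type, 72 in all, with 1 array for each time and day. No vein RNA without that isolation was measured, so an effect of the isolation on vein cells and a difference between tissues cannot be told apart. These are bulk samples, in which fewer cells of a type and less RNA per cell cannot be told apart. No label says that the day 9 and day 10 arrays of a time came from separate cultures, so p-values measure the spread between these arrays, which may be technical.

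Veins of a cotyledon hold phloem, which carries sugars and signals out of the leaf, xylem, which carries water into it, and the parenchyma and dividing cells between them. They are a small share of a leaf, and a transcript made in them alone is diluted in RNA of the whole organ. Plant vein cells are known for secreted wall-modifying enzymes, peroxidases that act in lignified walls, proteases, and receptor kinases that read peptide signals.

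Known tissue genes were set beside the members first. A call here and below means a Benjamini-Hochberg adjusted p under 0.05 from limma, taken over the 21827 probe sets that passed a filter on low values, together with a log2 difference of 1 or more. The vascular transcription factor gene LHW had means of 5.70 in long-day vasculature, 3.92 in long-day whole leaf and 2.27 in long-day mesophyll, and it was called higher in vasculature than mesophyll in both day lengths (log2 differences 3.43 and 3.62). SWEET11, a sugar exporter of phloem parenchyma, was also higher (2.39 and 2.93), and SBPASE, a Calvin cycle enzyme of photosynthetic cells, was lower in vasculature (-2.94 and -2.83). SBPASE still had means of 7.87 and 7.69 in vasculature, so its transcripts were not at the floor there, and which cells they came from was not tested. The guard cell genes FMA and BLUS1 were between 2.97 and 4.25 in whole leaf and at most 2.27 in either isolated tissue. OPS, a phloem gene, reached only 2.72 and 2.79 in vasculature. The listed bundle sheath gene SCL23 (AT5G41920) was at most 2.27 in any group. It was slightly lower in vasculature than mesophyll (-0.30 and -0.24) and not called. Most of the listed phloem and xylem markers had no probe set assigned to 1 gene and were not used here.

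Levels of the members in the 6 groups are shown by gene. Over the 31 members the mean was between 8.26 and 11.1 in long-day vasculature and between 8.08 and 11.1 in short-day vasculature. In mesophyll it was between 1.68 and 2.99 in long days and between 1.73 and 2.85 in short days, with medians over the members of 2.18 and 2.19. The median of all probe sets of 1 gene was 2.04 and 2.02 there, so the typical member lies near where unexpressed genes lie. Some mesophyll arrays were higher, up to 4.00 for AT5G42720 in long days and 3.80 for AT5G51890 in short days. No detection call was used to separate mesophyll values from background. For every member, in each day length, the lowest of 12 vasculature arrays was above the highest mesophyll array and above the highest whole leaf array. The separation from mesophyll is largely built into the choice. How many other genes are so separated from whole leaf was not counted.

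**Figure D1:**
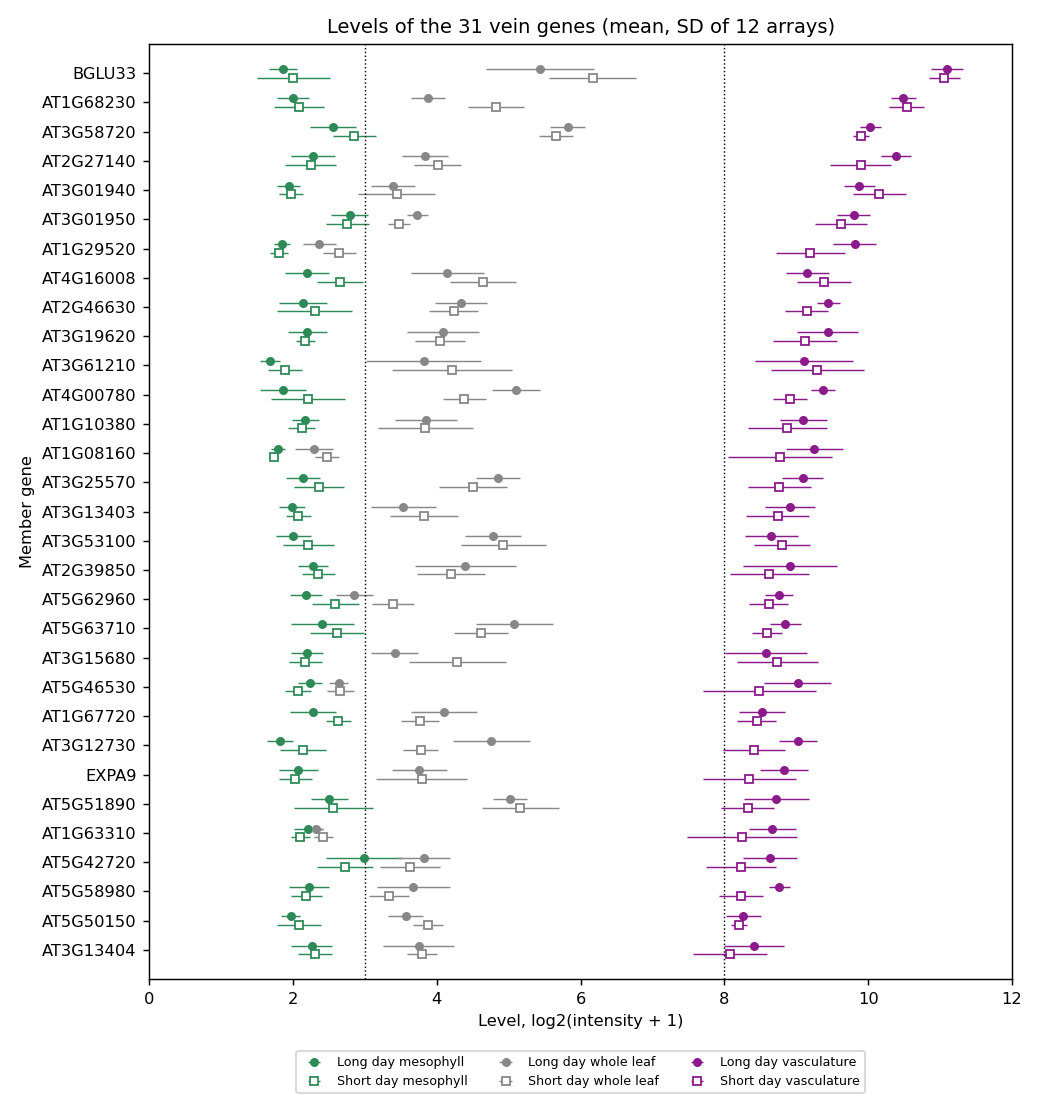
Mean level of each of the 31 genes on the log2(intensity + 1) scale in mesophyll (green), whole leaf (grey) and vasculature (purple), filled circles for long days and open squares for short days, with bars of 1 SD over 12 arrays. Dotted lines mark the limits of 3 and 8 used in the choice; whole leaf means, which the choice did not use, lie between 2.29 and 6.17 and always below the vasculature means.

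Values on either side of the limits were close. The smaller of the 2 vasculature means was 8.08 for AT3G13404 and 8.20 for AT5G50150, just inside, and 7.92 for AT3G56810 and 7.65 for AT4G37445, just outside. The larger mesophyll mean was 2.99 for AT5G42720 and 2.85 for AT3G58720 inside, and 3.28 for AT1G67865 and 3.43 for AT1G04680 outside. The larger range over time was 1.92 for AT3G61210 and 1.77 for AT5G46530 inside, and 2.20 for AT5G22860 and 2.47 for AT4G15660 outside. AT5G18600, which was also left out by name, was closer to the limit, at 2.005.

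Only 2 members carry a gene symbol in the RefSeq table used here, BGLU33 and EXPA9; the other 29 are named by locus. Protein families given below for loci are background knowledge, not a column of these files, and 10 members are left without a role. They were read as 4 groups: 7 enzymes and proteins that act in the wall or outside the cell, 6 membrane proteins and receptors, 3 enzymes of small-molecule metabolism, and 5 proteins of protein handling or DNA binding.

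Among the wall and secreted proteins, BGLU33 belongs to the beta-glucosidases, enzymes that release glucose from conjugates. Its 12 long-day vasculature arrays ran from 10.59 through a median of 11.12 to 11.37, its whole leaf arrays from 3.94 through 5.55 to 6.39, and its mesophyll arrays from 1.58 through 1.84 to 2.34. The 3 tissues did not overlap, and whole leaf was well above mesophyll. In short days BGLU33 ran from 10.76 to 11.44 in vasculature and from 4.90 to 6.97 in whole leaf. EXPA9, an alpha-expansin that loosens cell walls, ran from 8.29 through 8.83 to 9.38 in long-day vasculature and from 7.07 through 8.41 to 9.13 in short-day vasculature, against whole leaf ranges of 3.19 to 4.53 and 3.08 to 4.99. The others of this group are AT5G42720 and AT3G19620, glycosyl hydrolases, AT5G51890, a class III peroxidase, AT3G53100, a GDSL-type lipase, and AT2G39850, a subtilisin-like protease. AT2G39850 ran from 7.82 through 8.99 to 9.99 in long-day vasculature.

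No other measured beta-glucosidase was nearly confined to veins. Besides BGLU33, 23 family members had a probe set of 1 gene, 11 of these passed the filter on low values, and by limma 0 were called higher in vasculature than mesophyll in either day length. Over all kept probe sets, 12.7% were called higher under long days and 12.4% under short days. A family of 11 kept genes is too small to set 0 apart from these shares. The family counts higher at an unadjusted p under 0.05 were 4 in each day length. These 4 (BGLU25, BGLU41, BGLU44 and BGLU46) were also past a limma adjusted p of 0.05 in both. They missed the call through the minimum difference, with values from 0.39 to 0.92. BGLU40 was lower in vasculature in both day lengths (-2.68 and -2.48), and PYK10, the main enzyme of root endoplasmic reticulum bodies, in short days (-1.28). PYK10 was low in both isolated short-day tissues, at 3.77 in mesophyll and 2.49 in vasculature, against 9.80 in whole leaf. In long days its difference was 0.21 and not called, with 2.42 in mesophyll, 2.63 in vasculature and 8.22 in whole leaf. Of the 23, 22 had vasculature means at or below 5 in both day lengths; the other was BGLU44, at 8.04 and 8.22 in vasculature and 7.25 and 7.77 in mesophyll.

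Of the membrane proteins, AT1G68230 is a reticulon, a family that shapes tubules of the endoplasmic reticulum. It ran from 10.25 through 10.46 to 10.77 in long-day vasculature and from 10.05 through 10.55 to 10.85 in short-day vasculature, a narrow spread with an SD of 0.18 and 0.24. AT1G29520 and AT5G46530 both encode AWPM-19-like membrane proteins, and AT1G08160 a late embryogenesis abundant hydroxyproline-rich glycoprotein. AT1G29520 had a median of 9.87 in long-day and 9.36 in short-day vasculature, but of 2.42 and 2.71 in whole leaf and 1.82 and 1.76 in mesophyll. AT1G67720 and AT5G63710 are receptor-like kinases with leucine-rich repeats; AT5G63710 ran from 8.55 to 9.37 in long-day vasculature and from 3.84 to 5.82 in whole leaf.

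Of the metabolic enzymes, AT3G25570 encodes S-adenosylmethionine decarboxylase, which supplies the aminopropyl groups for polyamines. It had medians of 9.15 and 8.60 in vasculature and 4.92 and 4.42 in whole leaf, for long and short days. AT3G61210, a methyltransferase that uses S-adenosylmethionine, had a range over its time means of 1.92 in long-day vasculature; its long-day vasculature arrays ran from 7.77 through 9.16 to 9.97 and its short-day ones from 8.21 through 9.37 to 10.25. AT5G58980, a neutral ceramidase that cleaves the sphingolipid ceramide, ran from 8.57 through 8.70 to 8.98 in long days and from 7.45 through 8.29 to 8.56 in short days, so its 2 day lengths did not overlap in vasculature.

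Proteins of protein handling and DNA binding include AT2G27140, an HSP20-like chaperone, AT4G00780, a TRAF-like protein, AT3G58720, a RING or U-box protein, AT3G12730, with a homeodomain-like DNA-binding fold, and AT3G15680, with zinc fingers of the Ran-binding type. AT2G27140 had medians of 10.34 and 9.89 in vasculature. AT3G58720 varied little, from 9.71 to 10.32 in long-day and from 9.67 to 10.10 in short-day vasculature, while whole leaf ran from 5.46 to 6.18 and from 5.19 to 6.06. AT4G00780 lay between 9.06 and 9.60 in long-day vasculature and between 8.46 and 9.21 in short-day vasculature.

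Among the members without a role, AT3G01940 had medians of 9.88 and 10.22 in vasculature and 3.37 and 3.27 in whole leaf, for long and short days. AT3G01950 had medians of 9.73 and 9.70 in vasculature, AT2G46630 of 9.46 and 9.10, and AT4G16008 of 9.24 and 9.41. In whole leaf these 3 had medians between 3.45 and 4.56, below every vasculature array of their own.

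Some members lie side by side on the chromosome. AT3G13403 and AT3G13404 overlap in the RefSeq table, so their probe sets may detect some of the same RNA; their vasculature means were 8.91 and 8.41 in long days against 8.74 and 8.08 in short days. AT3G01940 and AT3G01950 have consecutive locus numbers, and AT3G01960, which overlaps AT3G01950, had vasculature means of 6.59 (long days) and 6.73 (short days), below the minimum. Its mesophyll means of 1.75 and 1.73 lie where unexpressed genes lie, so the log2 differences of 4.84 and 5.01 depend on that floor. AT2G32870, next to BGLU33 and a TRAF-like gene as AT4G00780 is, was higher in vasculature by 8.54 and 7.20 and missed the choice through a short-day mesophyll mean of 3.62. Of 31 measured genes next to a member that are not members themselves, 8 were called higher in vasculature than mesophyll in each day length (25.8%, against 12.7% and 12.4% of all kept probe sets) and 2 lower (6.45%, against 12.8% and 12.6%). Overlap of transcripts was present for some of these pairs and its part in the counts was not tested.

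Whole leaf levels of the members lay far below their vasculature levels. The whole leaf mean minus the vasculature mean had a median of -5.11 over the 31 genes in long days (from -7.45 to -3.70) and of -4.89 in short days (from -6.71 to -3.16). On the linear scale, whole leaf intensity was a median of 2.80% of vasculature intensity in long days (from 0.459% to 7.49%) and 3.54% in short days (from 0.865% to 11.3%). For the 365 other genes that met the vasculature minimum but not the mesophyll maximum, the median difference was -0.36 in each day length; those genes have mesophyll signal by construction. For LHW, which did not meet the minimum, it was -1.78 under long and -2.11 under short days. GCRMA background correction compresses or stretches low values, so these percentages describe the deposited intensities and not the share of veins in a leaf.

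Members differed in how much of the vein signal was seen in whole leaf. AT5G51890 had the highest whole leaf level relative to vasculature (-3.70 under long and -3.16 under short days), followed by AT3G53100 (-3.87 and -3.88) and AT5G63710 (-3.77 and -3.98). At the low end were AT1G29520 (-7.45 and -6.55), the lowest under long days, AT3G01940 (-6.48 and -6.71), the lowest under short days, and AT1G08160 (-6.96 and -6.31). All 12 whole leaf arrays were above the highest mesophyll array for 25 of 31 members in long days and for 25 in short days. How many other genes have whole leaf arrays so separated from mesophyll was not counted. AT1G63310 was the exception at the other end, with no long-day whole leaf array above its highest mesophyll array and whole leaf means of 2.32 and 2.42. By role, the median difference was -6.50 and -5.77 for the 6 membrane proteins and -4.82 and -4.56 for the 7 wall and secreted proteins, in long and short days; the ranges of these groups overlap, and no test was made between them.

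Day length, averaged over the 6 times, changed no member by the call. In whole leaf 0 of 31 members passed the call (limma; 1.86% of all kept probe sets did), and 18 had an unadjusted p under 0.05. In vasculature 0 of 31 did (1.48% of all kept probe sets), and 23 had an unadjusted p under 0.05. The minimum that both vasculature groups had to meet leaves out genes low in either day length, but does not cap a difference.

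Without the minimum difference, 19 members passed an adjusted p of 0.05 in vasculature, 17 higher in long days (12% of all kept probe sets) and 2 lower (16.5%). The median long minus short day difference over the members was 0.29 in vasculature, against 0.01 over all kept probe sets, and 25 of 31 were above 0. AT1G29520 had the largest difference, 0.62 ± 0.13 (SE; limma adjusted p = 0.0016), with long-day arrays from 9.21 to 10.27 overlapping short-day arrays from 8.4995 to 10.0013. AT3G12730 followed at 0.61 ± 0.11 (limma adjusted p = 5.7e-04), from 8.62 through 9.14 to 9.44 in long days and from 7.45 through 8.60 to 8.80 in short days. AT5G46530 and AT5G58980 were both 0.54 higher, by limma with adjusted p of 0.026 and 3.9e-05, and AT3G01940 (-0.28) and AT4G16008 (-0.23) were the 2 lower ones. At each time, the differences of AT1G29520 and AT5G46530 were higher on day 10 than on day 9, whereas that of AT3G12730 was higher on day 9. On day 9 the long-day arrays of AT5G46530 were below its short-day arrays at ZT0, ZT4 and ZT8. At ZT16 they read 9.13 against 8.90 on day 9 and 9.64 against 8.05 on day 10. Whether these differences changed between the days was not tested.

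In whole leaf the members went both ways. With no minimum difference 15 passed an adjusted p of 0.05, 7 higher in long days (17.9% of all kept probe sets) and 8 lower (19.9%), and the median over the 31 was -0.04, against 0.02 over all kept probe sets. AT3G12730 was again higher in long days, from 3.42 through 4.80 to 5.42 against 3.35 through 3.81 to 4.21 (0.98 ± 0.11, limma adjusted p = 7.1e-06), and was past the call without long-day whole leaf replicate 7 (1.08). AT1G68230 was lower, from 3.58 to 4.31 in long days against 4.27 to 5.60 in short days, ranges that overlap only between 4.27 and 4.31 (-0.95 ± 0.08, limma adjusted p = 4.5e-07). AT3G15680 was also lower (-0.87 ± 0.08, limma adjusted p = 5.1e-07), as was BGLU33 (-0.73 ± 0.19, limma adjusted p = 0.0059). Of 7 members past an adjusted p of 0.05 in both tissues, 6 had the same direction, a share not computed over all kept probe sets. AT1G29520 was the exception, higher in vasculature and lower in whole leaf (-0.28).

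**Figure D2:**
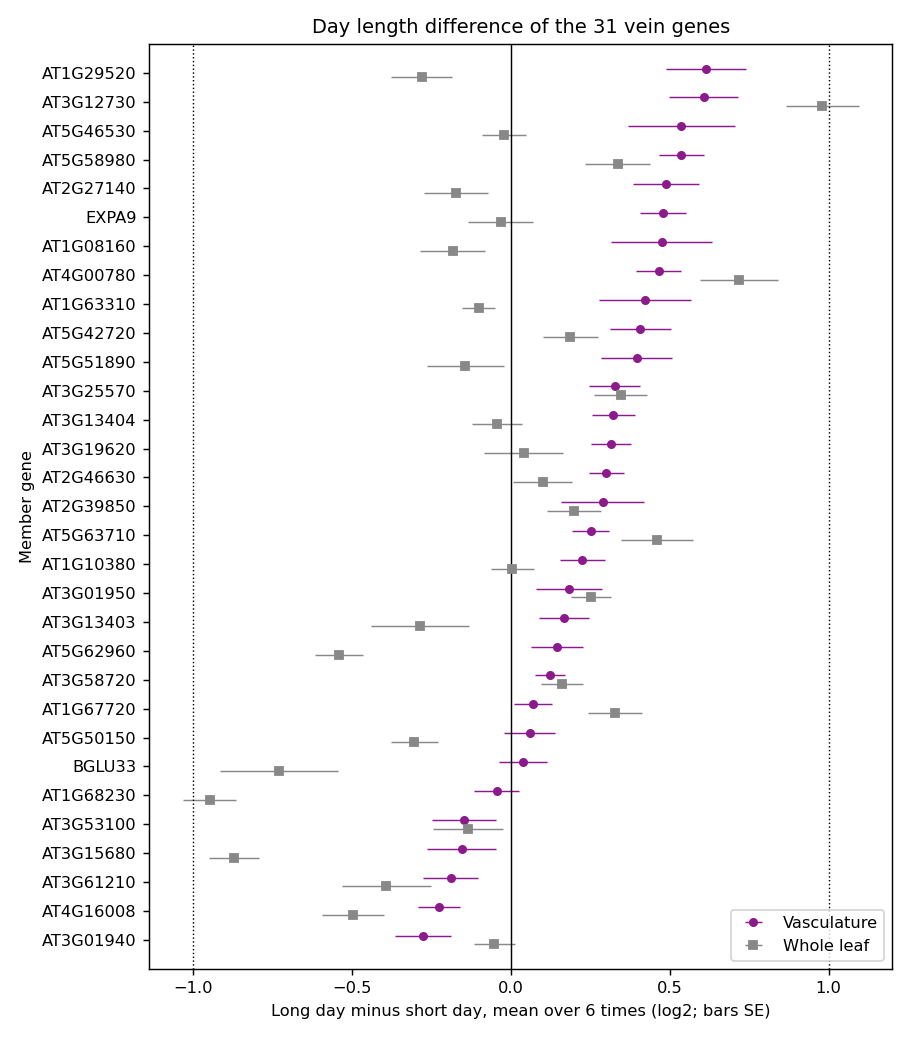
Long day minus short day level, averaged over the 6 times, for each of the 31 genes in vasculature (purple circles) and whole leaf (grey squares), with bars of 1 SE; dotted lines mark a difference of 1. In vasculature 25 of 31 genes lie above 0, whereas in whole leaf 18 lie below it.

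The day length difference itself differed between vasculature and whole leaf for some members. No member passed the call for that interaction (2.4% of all kept probe sets), with 18 at an unadjusted p under 0.05. With no minimum, 13 passed an adjusted p of 0.05 and all 13 were in the direction of a higher long-day level in vasculature relative to whole leaf (13.1% of all kept probe sets). AT1G68230 had the largest value, 0.90 ± 0.11 (limma adjusted p = 7.4e-07): its long minus short day difference was -0.04 in vasculature and -0.95 in whole leaf.

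Differences at single times were larger than the averages. Contrasts at each ZT, chosen after seeing the data, called 6 members in vasculature at 1 or more times and 12 in whole leaf. At least 1 tissue had a call for 13 members and neither had one for 18. The share of all kept probe sets called at 1 or more times was not computed, so these counts have no background beside them. Most vasculature calls, 8 of 10, fell at ZT12 and ZT16, when long-day plants were in light or at its end and short-day plants had been dark since ZT8. Calls over all kept probe sets in vasculature were also most numerous then. They were 459 higher and 532 lower at ZT12, 656 and 670 at ZT16, and at most 349 in either direction at other times. In whole leaf 9 of 20 member calls fell at ZT12 and ZT16. In vasculature 1 member was lower at ZT8 (1.6% of all kept probe sets), 3 higher (2.1%) and 1 lower (2.44%) at ZT12, 3 higher (3.01%) and 1 lower (3.07%) at ZT16, and 1 higher at ZT20 (0.71%). In whole leaf 3 were lower at ZT0 (2.36%), 1 higher (1.42%) and 1 lower (1.49%) at ZT4, 1 lower at ZT8 (2.86%), 4 lower at ZT12 (3.5%), 1 higher (4.28%) and 4 lower (4.47%) at ZT16, and 3 higher (1.31%) and 2 lower (1.38%) at ZT20. The limit on the time range keeps large swings in vasculature out of the set. In whole leaf, adding 16 in place of 1 before the logarithm left 4 members called.

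**Figure D3:**
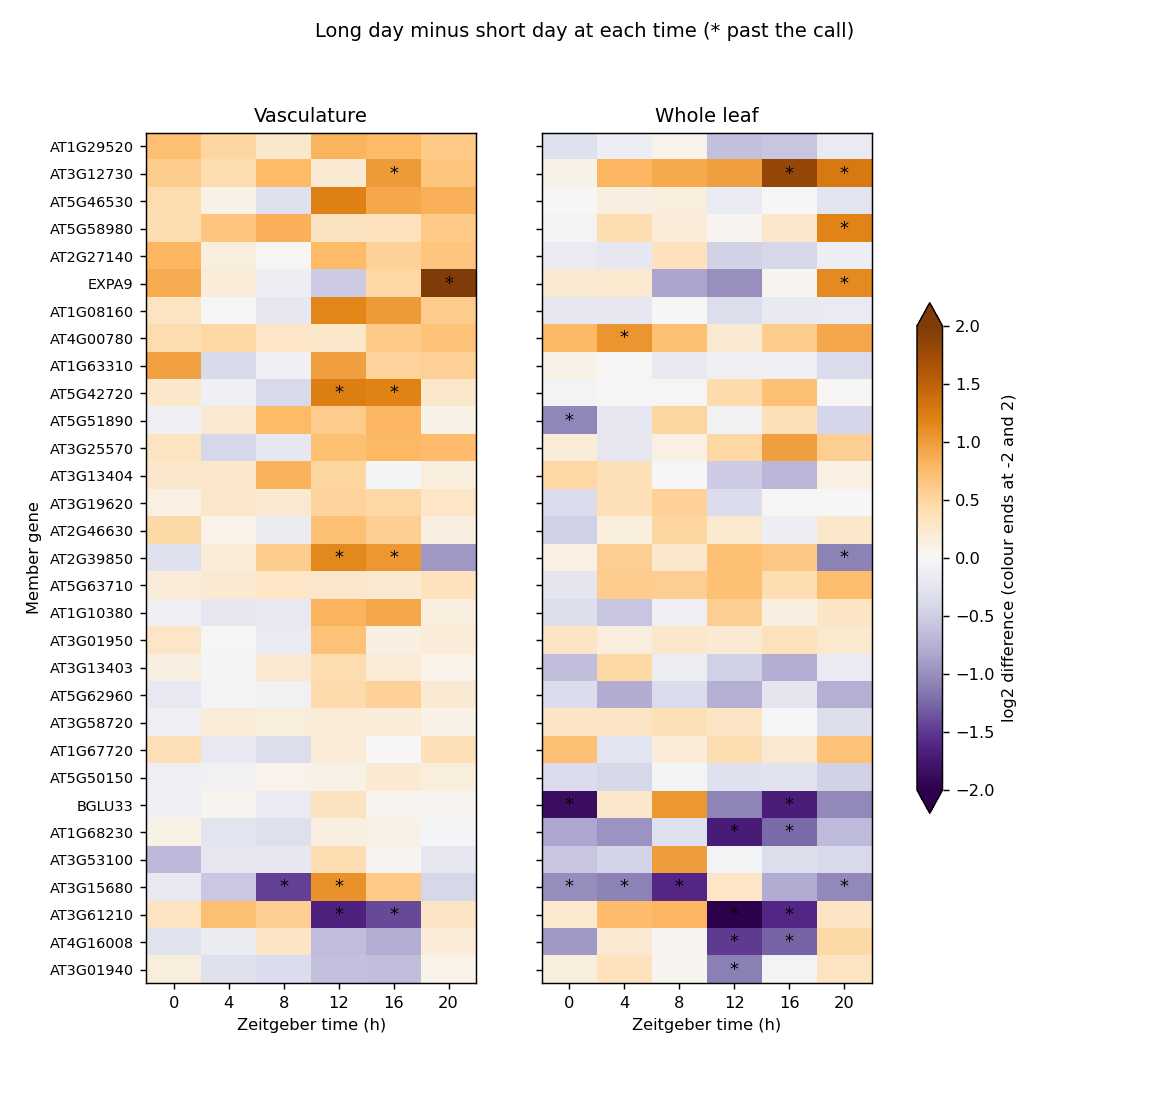
Long day minus short day level at each Zeitgeber time for the 31 genes in vasculature (left) and whole leaf (right), as colour from -2 (purple) to 2 (orange); an asterisk marks a limma call. The deepest purple, AT3G61210 in whole leaf at ZT12, is -2.86 and lies beyond the colour scale.

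AT3G61210, the methyltransferase, was lower in long days in the evening in both tissues. At ZT12 its day 9 and day 10 vasculature arrays read 8.67 and 8.51 in long days against 10.23 and 10.25 in short days (-1.65 ± 0.21, limma adjusted p = 1.1e-04); 2.44% of all kept probe sets were called lower there. In whole leaf they read 2.75 and 2.65 in long days against 5.25 and 5.87 in short days (-2.86 ± 0.34, limma adjusted p = 3.3e-05; 3.5% called lower). The groups did not overlap in either tissue, and at ZT16 the differences were -1.41 in vasculature and -1.60 in whole leaf, both past the call. Its levels at ZT0 and ZT20 were not past the call in either tissue.

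EXPA9 differed in the night. At ZT20 its vasculature arrays read 9.10 and 9.38 in long days against 7.41 and 7.07 in short days (1.999 ± 0.178, limma adjusted p = 3.0e-05; 0.71% of all kept probe sets called higher). In whole leaf they read 4.00 and 4.53 against 3.08 and 3.19 (1.13 ± 0.25, limma adjusted p = 0.011; 1.31% called higher). All long-day arrays were above all short-day arrays in each tissue. At ZT12 the whole leaf order was opposite, 3.19 and 3.59 in long days against 4.26 and 4.50 in short days, a difference of -0.998 that fell just short of the call.

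For the subtilisin-like protease AT2G39850 the day length difference was above 0 at ZT12 and ZT16 and below 0 at ZT20 in both tissues. Neither tissue was past the call for both signs, and the whole leaf differences at ZT12 and ZT16 were 0.71 and 0.63, not past the call. In vasculature AT2G39850 was higher in long days by 1.16 at ZT12 (9.99 and 8.80 against 8.27 and 8.21, limma adjusted p = 0.028) and by 1.04 at ZT16. At ZT20 its whole leaf arrays read 3.05 and 3.42 in long days against 4.40 and 4.24 in short days (-1.09 ± 0.21, limma adjusted p = 0.0052), and the vasculature difference of -0.94 was not past the call (adjusted p = 0.13). The glycosyl hydrolase AT5G42720 was higher in long-day vasculature at ZT12 (8.33 and 9.02 against 7.41 and 7.49, 1.23 ± 0.23) and at ZT16 (9.24 and 9.30 against 8.34 and 7.81, 1.19 ± 0.23), with limma adjusted p of 0.0027 and 0.0023. In whole leaf its differences at those times were 0.45 and 0.72, not past the call.

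The day length difference of AT3G15680, the zinc finger gene, changed sign in vasculature between ZT8 and ZT12. At ZT8 it was lower in long-day vasculature (7.48 and 8.20 against 9.57 and 9.02, -1.46 ± 0.26, limma adjusted p = 0.0051; 1.6% called lower), and at ZT12 it was higher (8.59 and 8.92 against 7.75 and 7.61, 1.07 ± 0.26, limma adjusted p = 0.014; 2.1% called higher). In whole leaf it was lower in long days at ZT8 by 1.60 on the log2 scale, with 3.62 and 3.61 against 4.92 and 5.51, and also past the call at ZT0, ZT4 and ZT20. AT3G12730 was higher in long days at ZT16 in both tissues, by 1.00 ± 0.27 in vasculature and 1.82 ± 0.28 in whole leaf. Of the 5 pairs of member and time called in both tissues (AT3G61210 at ZT12 and ZT16, AT3G12730 at ZT16, EXPA9 at ZT20 and AT3G15680 at ZT8), 5 had the same direction. The matching share over all kept probe sets was not computed.

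Other whole leaf calls had no matching call in vasculature. AT1G68230 was lower in long-day whole leaf at ZT12 (3.97 and 3.64 against 5.43 and 5.60, -1.71 ± 0.21, limma adjusted p = 3.4e-05) while its vasculature difference there was 0.14 (adjusted p = 0.71). BGLU33 was lower in long-day whole leaf at ZT16 (4.42 and 4.97 against 6.44 and 6.36, -1.70 ± 0.46, limma adjusted p = 0.012), with 0.05 in vasculature. Its difference of -1.85 at ZT0 rested on long-day whole leaf replicate 7 and was -0.99, not past the call, without it. AT4G16008 was lower at ZT12 (-1.50) and ZT16 (-1.27), where its vasculature differences of -0.65 and -0.77 passed an adjusted p of 0.05 and were under 1. AT3G01940 was lower at ZT12 (-1.11), AT5G51890 lower at ZT0 (-1.06), AT4G00780 higher at ZT4 (1.06) and AT5G58980 higher at ZT20 (1.18); AT5G51890 and AT3G15680 at ZT0 were not past the call without replicate 7. Whether the day length difference at a single time differs between the tissues was not tested.

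**Figure D4:**
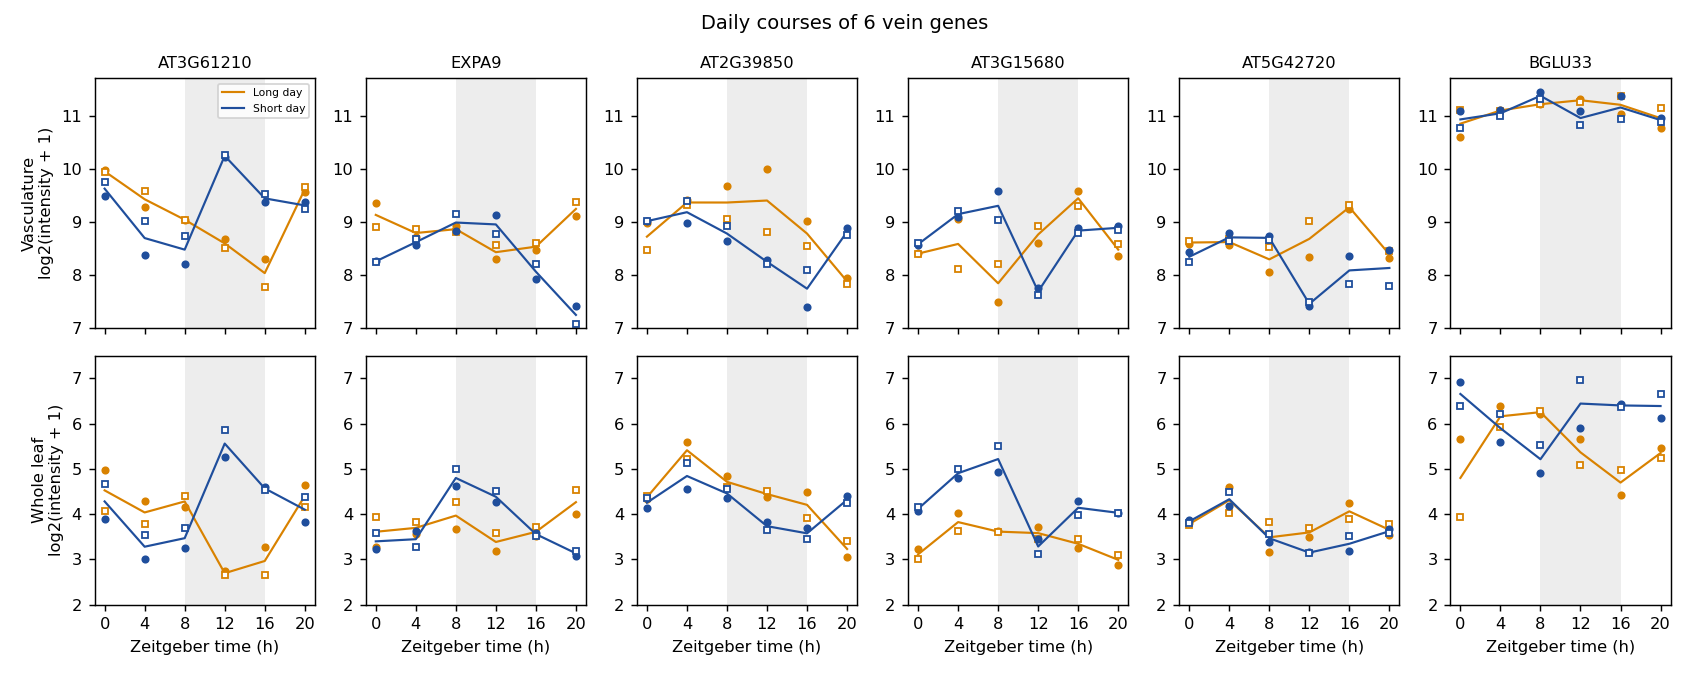
Level on the log2(intensity + 1) scale at each Zeitgeber time for 6 genes in vasculature (top row) and whole leaf (bottom row), orange for long days and blue for short days; circles are day 9 arrays, squares day 10 arrays and lines their mean, and grey marks ZT8 to ZT16, when only long-day plants were lit. The short-day AT3G61210 line peaks at ZT12 in both tissues, at 10.24 and 5.56.

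Daily rhythm in whole leaf was tested as a 24-hour cosine and sine with a moderated F test in limma. In long days 3 of 31 members passed an adjusted p of 0.03 (9.52% of all kept probe sets): AT2G39850, with a fitted amplitude of 0.78, AT3G13404, with 0.61, and AT5G50150, with 0.28. In short days 7 of 31 passed (34.7% of all kept probe sets), and with all 72 arrays in 1 fit 11 of 31 did (29.0% of all kept probe sets), so how the members stand against all probe sets depends on the fit. The 7 were EXPA9 (amplitude 0.77, fitted peak ZT 9.6), AT3G53100 (0.66, peak ZT 23.2), AT3G01940 (0.62, peak ZT 13.7), AT2G39850 (0.54, peak ZT 3.2), AT3G25570 (0.54, peak ZT 4.7), AT5G42720 (0.48, peak ZT 2.0) and AT5G63710 (0.41, peak ZT 4.6). AT2G39850 was the 1 member called in both day lengths; its long-day call was lost without long-day whole leaf replicate 7, as was that of AT5G50150. Without that array 5 members passed in long days (10.5% of all kept probe sets), AT3G13404 among them with BGLU33, AT3G13403, AT3G61210 and AT5G58980.

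Vasculature courses had a capped range and are described with no test. EXPA9 in short days had vasculature means of 8.25 at ZT0, 8.98 at ZT8 and 7.24 at ZT20, and whole leaf means of 3.40, 4.80 and 3.14, with fitted peaks at ZT 8.2 and 9.6. The decarboxylase gene AT3G25570 was highest at ZT4 in both short-day tissues, at 9.51 in vasculature and 5.18 in whole leaf. In long days AT3G13404 had its highest mean at ZT0 in both tissues (9.04 and 4.45), and the overlapping AT3G13403 had its highest vasculature mean at ZT0 too (9.43). Over all members, the highest short-day vasculature mean fell at ZT8 for 14, at ZT4 or ZT12 for 6 each, at ZT0 for 5, and at ZT16 or ZT20 for 0. In long-day vasculature the highest mean fell at ZT16 for 8 members and at ZT12 for 7.

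Deviations of the members in short-day vasculature, whose time means the range limit used, are described with no test. The median deviation of the 31 genes from their own group means was 0.32 at ZT4 on day 9 and 0.20 at ZT4 on day 10, with 25 and 27 of 31 genes above their mean. At ZT20 it was -0.06 on day 9, with 14 above, and -0.18 on day 10, with 8 above. The days differed in sign at ZT12, with 0.03 on day 9 and -0.24 on day 10. They also did at ZT0 (0.08 and -0.14) and at ZT16 (0.02 and -0.16).

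**Figure D5:**
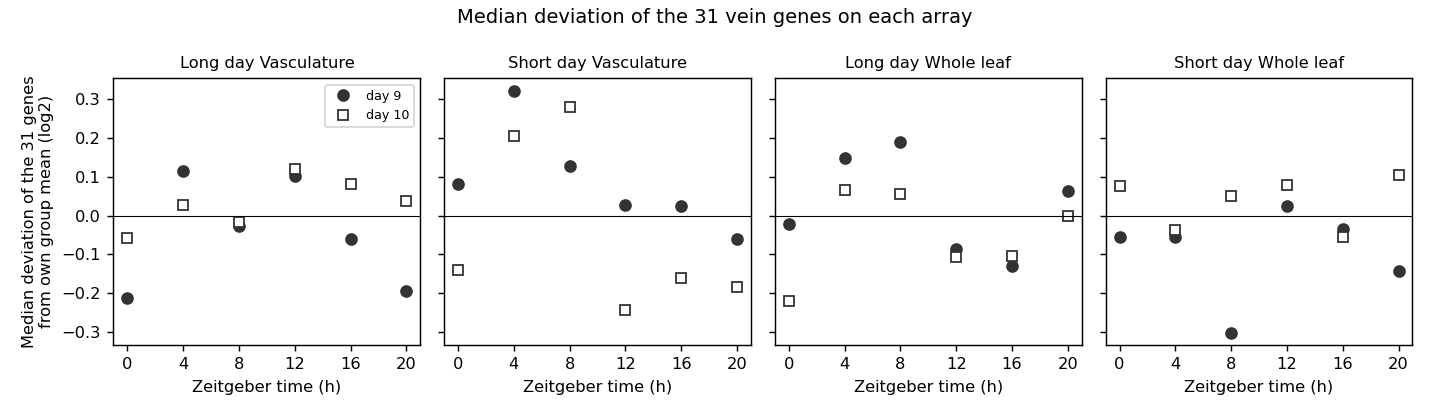
Median over the 31 genes of the deviation from each gene's own group mean (log2) on each array, by Zeitgeber time, for vasculature and whole leaf in each day length; filled circles are day 9 and open squares day 10. Short-day vasculature is highest at ZT4 on day 9, at 0.32.

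No member was called between day 10 and day 9. The count was 0 of 31 in whole leaf and in vasculature of each day length by limma, and 0% of all kept probe sets were called in each of these 4 comparisons. At an unadjusted p under 0.05 the counts were 9 and 5 in whole leaf and 7 and 14 in vasculature, for long and short days.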

How the data were processed

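The authors deposited 1 linear intensity per probe set and array. Per the submitters' processing notes the tool was GCRMA (no version given there), which adjusts for probe-sequence background and can stretch or compress dim values. The deposited arrays do not share 1 distribution: array medians ran from 3.29 to 3.77, and quantile normalization was tried as an alternative. The number of arrays limits the precision.

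Values were analysed as log2(intensity + 1). Probe sets above 2.77 (the 40th percentile) in at least 6 arrays were kept, 21827 of 28583, and all 31 members were kept. Genes were named from the platform table through RefSeq (TAIR10.1), which held 30 of the 31; 759 probe sets had several genes and 11102 none listed. No sequence or coordinate is given.

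Tests were two-sided, with limma 3.58.1 in R 4.3.3, fitted on all kept probe sets with a mean for each group and time and Benjamini-Hochberg adjustment. The rhythm test is a 24-hour cosine and sine. They were tested on simulated data. Figures used matplotlib 3.10.9. Members, lists and rules were chosen with earlier results of these data known. Members named with values are those with the 12 highest vasculature means, those called in a test, the extremes of whole leaf relative to vasculature, those beside the limits, and chromosome neighbours; genes in the ZT contrasts were named after their values were seen. The symbol FDH in the epidermis list matched another gene and was not used; the fixed list of reticulon genes matched 0 probe sets, and families by description could not be looked up.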

Additional observations from a re-analysis of the deposited data

Results flagged for a closer look

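For 13 members the day length difference in vasculature differed from that in whole leaf at a limma adjusted p under 0.05 for the interaction. The values are the long minus short day difference in vasculature minus the same in whole leaf, on the log2 scale. They were 0.90 for AT1G68230, 0.90 for AT1G29520, 0.77 for BGLU33, 0.72 for AT3G15680, 0.69 for AT5G62960, 0.66 for AT2G27140 and 0.66 for AT1G08160. They were 0.56 for AT5G46530, 0.54 for AT5G51890, 0.52 for AT1G63310, 0.51 for EXPA9, 0.37 for AT3G13404 and 0.36 for AT5G50150. None reached a difference of 1. The whole leaf signal of AT1G63310 was above its highest mesophyll array on 0 of 12 long-day and 9 of 12 short-day arrays, so its value mostly restates its vasculature difference of 0.42. Of the other 12, AT1G29520, AT5G62960, AT1G08160 and AT5G46530 also had whole leaf arrays that were not above their highest mesophyll array.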

How the results depend on the processing

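The choice of members gave 35 genes with a vasculature minimum of 7.5, 21 with 8.5, 23 with a mesophyll maximum of 2.5, 33 with 3.5 and 35 with no limit on range, all within 1.5 times of 31. Members called for day length in whole leaf were 1 with quantile normalization, 1 without Long day Whole leaf replicate 7, and 15 with no minimum difference; in vasculature 19 and for the interaction 13 with no minimum difference. Rhythm calls in long-day whole leaf were 8 of 31 with all 72 arrays in 1 fit (22.0% of all kept probe sets) and 5 without Long day Whole leaf replicate 7 (10.5%), and in short days 11 with all 72 arrays (29.0%). The median whole leaf minus vasculature difference was -4.14 (long days) and -3.91 (short days) with log2(value + 16). Members called at 1 or more ZT numbered 4 in whole leaf with log2(value + 16), 19 with no minimum difference, and 14 in vasculature with no minimum difference. Of single-gene results past their threshold, 18 of 30 ZT values and 28 of 57 others were no longer past it under 1 or more alternatives, and none turned direction under any alternative run; log2(value + 16) took 17 of the 30 ZT values below it.

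Samples of the same time and day share a number across groups, but their deviations correlated between -0.11 and 0.15, so the numbers do not pair them. With the replicate block, 0 members were called in whole leaf, in vasculature and for the interaction. Members past an adjusted p of 0.05 with no minimum difference went from 15 to 8, from 19 to 10 and from 13 to 5. That fit has a term for each time and day, shared by the groups, in place of a mean for each group and time. A day length difference that varies over the times therefore adds to its residual spread. Long day Whole leaf replicate 7 had the lowest mean intensity (54.2, next 67.8) and the lowest correlation with the other array of its time (0.969, next 0.975). With 2 arrays per time and group, differences at single times rest on 4 arrays.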
